A study of Rattus norvegicus with 12 samples.

Results

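The microRNAs rno-miR-223, rno-miR-142-3p, rno-miR-142-5p and rno-miR-150, written without the species prefix from here on, are best known from white blood cells, and the deposited arrays measured them in the milk whey and the serum of the same 3 lactating rats. They were taken by name from all rat miRNAs of the array, of which 188 were detected on at least 1 array, these 4 among them, and the other 200 on none. All 4 were detected on all serum arrays, as were 36.6% of all miRNAs on the array. Only miR-223 of the 4 was detected in the whey of every rat on every day. miR-150 and miR-142-5p were detected on 3 of 3 serum arrays and on 0 of 9 whey arrays, and the miR-142-3p signal was faint in both fluids.

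The dams were F344/N rats, an inbred strain, and the methods of the study name no transgene. They were obtained pregnant at 14 weeks of age, and each was milked on day 2, day 9 and day 16 after birth and bled on day 21. Day 2 whey is colostrum whey, and days 9 and 16 are mature milk whey. Each of the 4 groups held 1 array from each of rats 1, 2 and 3, so the same animals recur in all groups and n was 3. All dams had been kept from their litters before milking and had received oxytocin and sevoflurane anesthesia, and blood was drawn under sevoflurane. Whey and serum had been spun and filtered to take out cells and debris, so the RNA measured was that left in the cleared fluid, and more cells releasing a miRNA cannot be told apart from more miRNA released per cell. Each array received 70 ng of total RNA, so a signal is a level per mass of RNA and not per volume of fluid. Serum was taken later than any milk sample, so the fluid and the day of collection cannot be told apart in any comparison of serum with whey.

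In blood-forming tissue miR-223 is a myeloid miRNA, abundant in granulocytes and monocytes, where it restrains granulocyte production and activation in mice. miR-142 is transcribed across nearly all blood cell lineages from 1 gene, and both arms of its hairpin, miR-142-5p and miR-142-3p, are loaded into Argonaute proteins and used. miR-150 is a miRNA of mature B and T lymphocytes, which in mice controls the level of the transcription factor Myb. Milk contains leukocytes as well as cells shed from the mammary epithelium, and miRNAs leave cells in vesicles or bound to proteins.

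The mature sequences of 3 of the 4 are shown with the seed, bases 2 to 8 from the 5′ end, in capitals, because the seed is the part that pairs with target mRNAs and defines families. They are those of RefSeq on the rat build GRCr8.
miR-223 (listed as miR-223-3p): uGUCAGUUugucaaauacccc
miR-142-3p: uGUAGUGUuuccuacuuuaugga
miR-142-5p: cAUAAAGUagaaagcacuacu
The 3 seeds were all different, so no 2 of these miRNAs belong to one seed family. miR-223 lies on chromosome X at chrX:65151450-65151470, and miR-142-3p and miR-142-5p lie on chromosome 10 at chr10:73055155-73055177 and chr10:73055119-73055139, all on the plus strand. The Mir142 hairpin, 87 bases at chr10:73055104-73055190, is shown with both mature arms in capitals, because the 2 arms come from the same transcript and yet gave different readouts on these arrays.
Mir142: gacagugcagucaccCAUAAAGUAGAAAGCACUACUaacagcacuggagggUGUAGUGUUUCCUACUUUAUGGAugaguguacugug

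The array carried 2 probes for each of these miRNAs, 1 base apart in length, with 10 spots each. The probes of miR-223 and of both miR-142 arms are shown because the longer and the shorter probe did not always read alike.
miR-223, longer probe: ggggtatttgacaaactgaca
miR-223, shorter probe: ggggtatttgacaaactgac
miR-142-3p, longer probe: tccataaagtaggaaacactaca
miR-142-3p, shorter probe: tccataaagtaggaaacactac
miR-142-5p, longer probe: agtagtgctttctacttta
miR-142-5p, shorter probe: agtagtgctttctacttt
Each probe was complementary to its miRNA over its whole length. The longer miR-223 and miR-142-3p probes covered the miRNA from base 1 to its last base, and the shorter ones began at base 2. Those of miR-142-5p, 19 and 18 bases long, began at bases 3 and 4 and so left its first bases unpaired. The miR-150 probes were 17 and 16 bases long. In the scanner files, which use the older build rn4, the longer miR-150 probe is placed at chromosome 1, positions 95596098 to 95596113.

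The scanner software gave each miRNA a total signal, which sums its probes after background subtraction and can fall below 0, and a detected or not detected call. Over the 12 arrays the summed signal of all miRNAs ran from 22491 to 161389, lowest on the 3 day 2 arrays, and 109 to 165 miRNAs were detected per array. No spot of the 4 miRNAs was saturated. Total signals were then quantile normalized, which gives all arrays the same distribution of values, and are given below as log2 normalized signals, in which 0 is the floor set for signals of 1 or less. Each array has a background limit, taken as its dimmest normalized signal from any miRNA that had a share of 0.5 or more of its spots well above background. Its group mean was 5.37 in day 2 whey, 4.46 in day 9 whey, 4.36 in day 16 whey and 3.36 in serum, on the log2 scale. A mean below that limit is taken here as only a bound. A miRNA can lie below it and still be called detected, as miR-142-3p did in serum (mean 3.15, detected on 3 of 3 arrays). One slide held days 2 and 9 and the second held day 16 and serum, so only day 9 against day 2 and serum against day 16 are comparisons within a slide. In the other 4 comparisons the slide and the group cannot be told apart.

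By a call on at least 1 of 3 arrays, 1 of the 4 miRNAs was detected in day 2 whey, 2 in day 9 whey, 2 in day 16 whey and 4 in serum. Of all miRNAs on the array, 33% were detected in day 2 whey, 37.1% in day 9 whey, 36.9% in day 16 whey and 43.3% in serum. When a call on all 3 arrays was required, only miR-223 remained in day 9 and day 16 whey. By that rule 27.8% of all miRNAs on the array were detected in day 2 whey and 29.6% in day 9 whey. The share was 31.4% in day 16 whey and 36.6% in serum. Detection on all serum arrays and no whey array, the pattern of miR-142-5p and miR-150, was found for 14 of the 188 miRNAs tested, which is 7.45%.

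**Figure D1:**
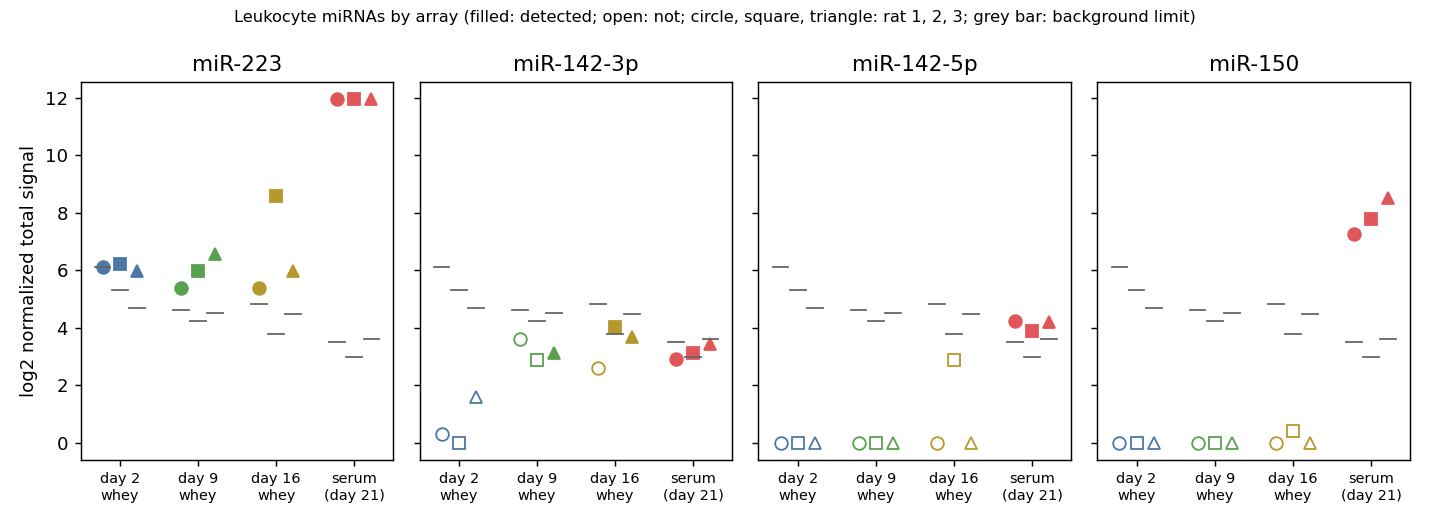
Log2 normalized total signal of miR-223, miR-142-3p, miR-142-5p and miR-150 on each of the 12 arrays, by group, with 1 point per rat (circle rat 1, square rat 2, triangle rat 3), filled where the miRNA was detected and open where it was not. Grey bars are each array's background limit. miR-223 and miR-150 lie far above their whey values in serum, the square of rat 2 at 8.60 stands above the other day 16 points of miR-223, and miR-142-3p stays at or under the limits in most arrays.

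Of the 4, miR-223 was the one present throughout lactation. Its total signal in day 2 whey was 23.9, 30.1 and 24.6 in rats 1, 2 and 3. In day 9 whey it was 26.03, 50.6 and 71.0. In day 16 whey it was 23.9, 588 and 47.0, and in serum 8760, 7412 and 6167. The day 2 and day 9 values overlapped, rats 1 and 3 on day 16 lay within the range of the other whey samples while rat 2 lay far above it, and the lowest serum array was 10.5 times the highest whey array in total signal. miR-223 was called detected on 12 of 12 arrays. On the day 2 array of rat 1 it was itself the dimmest miRNA that set the background limit.

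After normalization the mean log2 signal of miR-223 was 5.98 ± 0.59 (SD, n = 3) in day 9 whey, 6.11 ± 0.13 in day 2 whey and 6.66 ± 1.71 in day 16 whey, against 11.94 on all 3 serum arrays. The serum values are identical because quantile normalization fixes a value by its rank and miR-223 held the same rank on each serum array, so they carry no spread of their own. The neighbours in this order did not differ beyond their spread within whey. Day 9 minus day 2 was -0.13 (95% interval -1.68 to 1.42, limma adjusted p = 0.987), day 16 minus day 2 was 0.55 (interval -1.001 to 2.09, adjusted p = 0.552) and day 16 minus day 9 was 0.68 (interval -0.87 to 2.22, adjusted p = 0.685). These intervals still allow a change of more than 2-fold either way between days 2 and 9.

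Serum exceeded each whey day for miR-223 in 3 of 3 rats. The log2 difference was 5.83 against day 2 (SE 0.69, limma adjusted p = 2.5e-05) and 5.96 against day 9 (adjusted p = 2.19e-05), which are 57.0-fold and 62.4-fold. Against day 16, on the same slide, it was 39.1-fold, and the rats differed widely. Their own differences were 6.55, 3.34 and 5.97 in rats 1, 2 and 3, so the smallest gap belonged to rat 2, whose day 16 whey was high. Without that array the log2 difference from serum was 6.26 and day 16 minus day 2 turned to -0.43. The sizes also depended on the processing. Against days 2, 9 and 16 the log2 differences of serum were 8.14, 7.34 and 6.40 without normalization between arrays, and 4.98, 4.91 and 4.37 with normexp background correction.

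Both miR-223 probes showed this pattern. In whey the longer probe read 12.4 to 342 and the shorter 10.98 to 247, and both had their highest whey value in rat 2 on day 16. In serum they read 4171 to 5450 and 1997 to 3310. The longer probe, which reaches base 1 of the miRNA, was 1.08 to 1.66 times the shorter in whey and 1.65 to 2.09 times in serum.

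miR-150, the lymphocyte miRNA, was bright in serum and at background in milk. Its total signal was 366, 427 and 469 in the serum of rats 1, 2 and 3. Over the 9 whey arrays it ran from -4.61 to 1.35 with a median of -1.64, and no spot of either probe was well above background on any whey array. All serum values lay above all whey values, which were not above background. In normalized signal serum was at 7.86 ± 0.63 (SD, n = 3), and the rats lay at 7.28, 7.77 and 8.53. Whey gave only a bound. Set against the background limits, serum was at least 5.61-fold above day 2 whey. It was at least 10.6-fold above day 9 whey and at least 11.3-fold above day 16 whey. The fitted log2 differences from days 2, 9 and 16 were 7.86, 7.86 and 7.73 (limma adjusted p = 3.67e-09, 2.68e-09 and 2.89e-09). These p-values belong to the fit and not to the bounds. In the fit all day 2 and day 9 values lay at the floor and had no spread. With normexp correction the difference from day 16 was 2.04. The smaller bound for day 2 goes with the higher background limit of its normalized arrays. Of its probes, the longer carried most of the serum signal, at 348 to 447 against 18.0 to 23.0 for the shorter, a ratio of 17.6 to 20.6. Since the total adds both, the level of miR-150 rests on that 1 probe, although the shorter had up to 10 of 10 spots well above background in serum too.

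miR-142-5p had the same pattern at a much lower signal. Its serum total signal was 39.6, 27.3 and 21.4 in rats 1, 2 and 3, detected in all 3. In whey it was below 0 on 8 of 9 arrays, at -7.18 to -2.35 on days 2 and 9 and at -6.15 and -1.42 in rats 1 and 3 on day 16. The exception was rat 2 on day 16, at 9.27, which is 2.60 times its own error and was not called detected. All 3 serum values lay above it. Both probes read alike in serum, at 11.4 to 19.2 for the longer and 10.02 to 20.3 for the shorter.

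The log2 mean of miR-142-5p in serum was 4.10 ± 0.19 (SD, n = 3), and it was 0, the floor, in the whey of days 2 and 9. Differences were 4.10 against day 2, 4.10 against day 9 and 3.15 against day 16 (SE 0.63 each, limma adjusted p = 0.000185, 0.000181 and 0.00112). The serum mean is lower than the background limits of all 3 whey groups, so no least fold can be given, and the size of the log2 difference depends on where the floor is set. With a floor of 5 in place of 1 the mean serum excess over whey within rats fell from 3.79 to 1.72, and with normexp correction to 0.33, and it remained called in both.

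miR-142-3p, from the other arm of the same hairpin, did not follow. Its total signal was 0.203, 0.158 and 1.24 in day 2 whey, 7.996, 6.72 and 8.15 in day 9 whey, 4.04, 22.5 and 12.1 in day 16 whey, and 15.0, 17.5 and 13.7 in serum, each for rats 1, 2 and 3. It was detected on 0 of 3, 1 of 3, 2 of 3 and 3 of 3 arrays in that order of groups. The highest value of all belonged to day 16 whey of rat 2, so serum and whey overlapped, and the lowest serum value was 0.607 of the highest whey value. The normalized means were 0.63 ± 0.84, 3.19 ± 0.37, 3.43 ± 0.74 and 3.15 ± 0.26, all below the mean background limit of their group. Serum minus day 16 was -0.28 (95% interval -1.32 to 0.76, limma adjusted p = 0.595) and serum minus day 9 was -0.04 (interval -1.08 to 1.001, adjusted p = 0.976). Over the scalings tried these 2 differences ran from -0.38 to 0.57 and from -0.04 to 1.01, so their direction is not settled.

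By the test, miR-142-3p was higher in each of the other groups than in day 2 whey, by 2.56 in day 9 whey (SE 0.46, limma adjusted p = 0.0012), 2.80 in day 16 whey (adjusted p = 0.000657) and 2.53 in serum (adjusted p = 0.000594), in 3 of 3 rats each time. These are differences between group means under the background limit and have no fold. The calls for day 9 (0.87, adjusted p = 0.0691) and serum (0.83, adjusted p = 0.0501) were lost when the floor was 5, and the day 9 call also with normexp background correction (adjusted p = 0.143). The summed signal of the day 2 arrays, 22491 to 26246, was also below that of every other array, and its part in this difference was not tested. Only the longer miR-142-3p probe had spots well above background on any array, up to 9 of 10 in serum and 7 of 10 in whey. The shorter probe, which lacks the base opposite base 1 of the miRNA, had 0 of 10 on all 12 arrays and read 2.57 to 4.44 in serum, where the longer read 11.1 to 13.1.

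**Figure D2:**
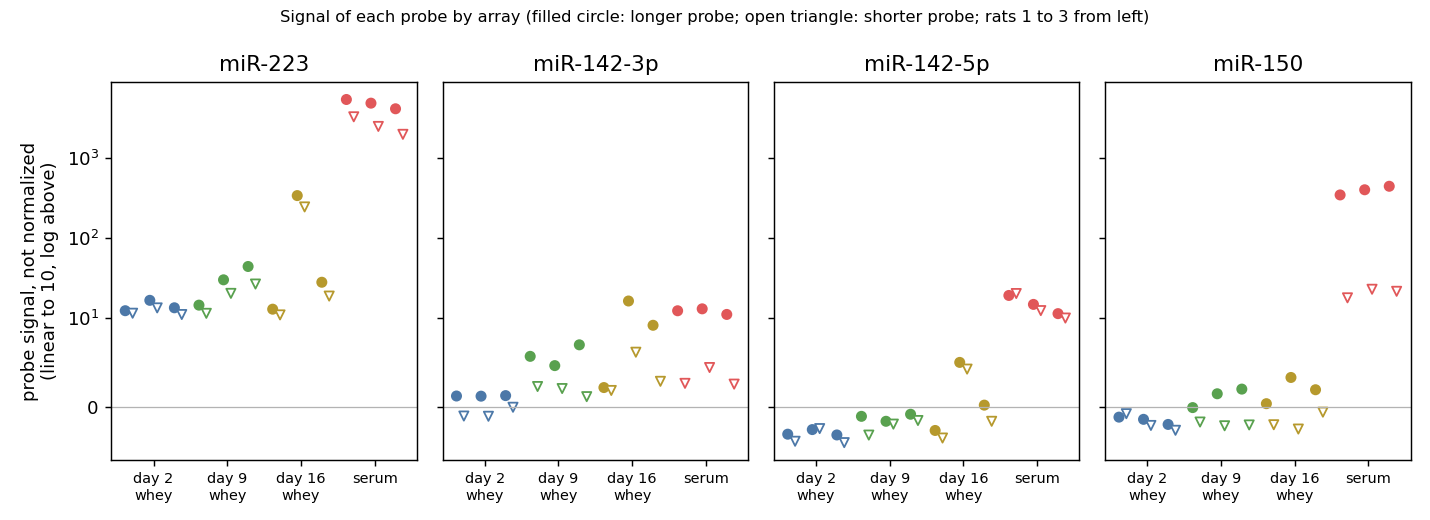
Signal of the longer probe (filled circles) and the shorter probe (open triangles) of each miRNA on the 12 arrays, before normalization, with rats 1 to 3 from left to right in each group and an axis that is linear to 10 and logarithmic above. The miR-150 serum signal sits almost wholly on the longer probe (348 to 447), the miR-142-3p signal rises above background only on the longer probe, and both miR-223 probes show the high day 16 value of rat 2.

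Counted together, 3 of the 4 miRNAs were called between serum and day 16 whey (all higher in serum), where 75% of the 188 tested miRNAs were called and 36.2% were higher. Against day 9 whey 3 were called, all higher in serum, with 74.5% of the tested miRNAs called and 36.2% higher. Against day 2 whey all 4 were called higher, with 83% called and 39.9% higher. In these serum comparisons the calls of miR-142-5p and miR-150 restate their detection in serum alone. Within whey, 1 was called between days 9 and 2 (45.2% of tested called, 28.2% higher), 1 between days 16 and 2 (55.3% called, 32.4% higher) and 0 between days 16 and 9 (7.45% called). The 1 miRNA within whey was miR-142-3p each time. In the last of these comparisons, none of the 4 had an unadjusted p under 0.05 either, and none was called by the Tukey-Kramer test. Since miR-142-5p and miR-150 were not detected in whey, the comparisons within whey give no measure of change for them. Comparisons with the same whey or serum group share its arrays. The median log2 difference of the 4 was 4.22 between serum and day 16, beside 0.11 over all 188, with miR-142-5p at a value that depends on the floor.

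The rats could also be compared with themselves. The serum value was set against the mean of a rat's 3 whey values and its label exchanged within each rat in all 64 arrangements. By this two-sided exact permutation test miR-223 (5.69), miR-142-5p (3.79) and miR-150 (7.82 on the log2 scale) each had p = 0.0156, the smallest that 64 arrangements can give, and an adjusted p = 0.0285 over the 188 miRNAs tested. miR-142-5p and miR-150 were detected only in serum, so they were among the 188 through their serum arrays alone. Their total signals were below 1 on 8 of 9 whey arrays. Their p-values by this test and by limma in the serum comparisons therefore restate that detection pattern and add no separate support. In all 3 rats serum was the highest of a rat's 4 samples for miR-223, miR-142-5p and miR-150, in normalized and in total signal. For miR-142-3p the mean excess was 0.74 (exact p = 0.469, adjusted p = 0.534), and after normalization serum was the highest sample in 0 of 3 rats, whereas in total signal it was the highest in 2 of 3. The test called 54.8% of all tested miRNAs, 26.6% with serum higher. All serum arrays lay above all whey arrays for 27.7% of tested miRNAs.

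**Figure D3:**
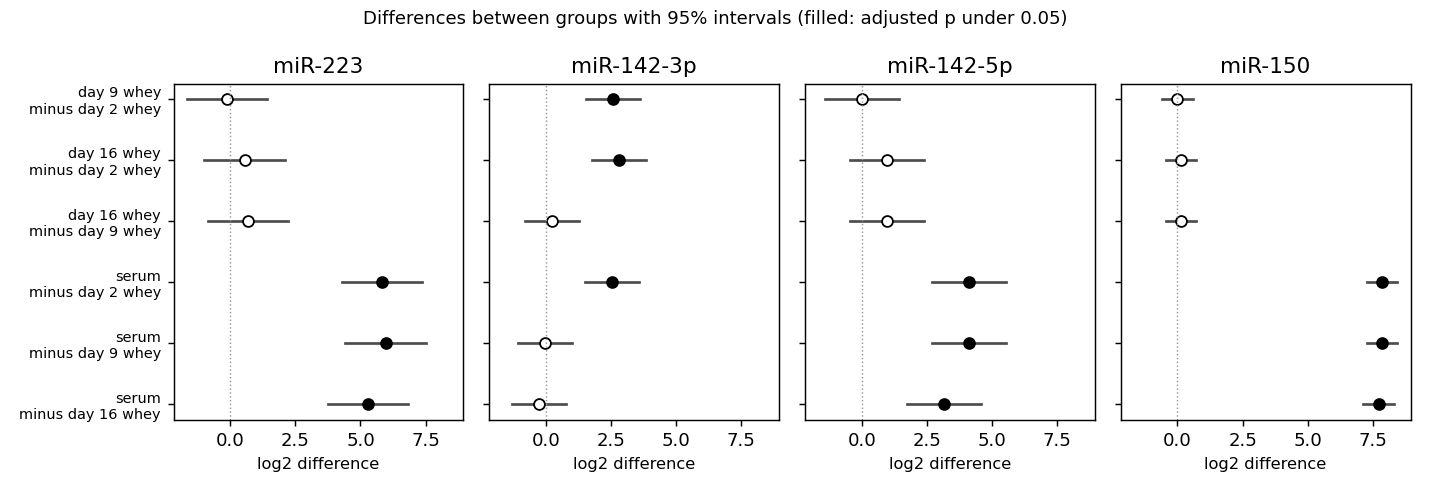
Log2 differences between groups (points) with their 95% intervals (lines) for the 4 miRNAs in all 6 comparisons, filled where the adjusted p was under 0.05. The 3 serum comparisons of miR-223, miR-142-5p and miR-150 lie between 3.15 and 7.86, while the whey comparisons of these 3 have intervals that include 0. For miR-142-5p and miR-150, detected on 0 of 9 whey arrays, those intervals come from values mostly at the floor and measure no lack of change.

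Of the 4 miRNAs, only miR-223 was clearly high in the day 16 whey of rat 2. Against the mean of rats 1 and 3, miR-223 was higher there by 2.91 on the log2 scale, or 16.6 times in total signal, and ranked 1 of the 122 miRNAs detected on all 3 day 16 arrays. The array was singled out because its miR-223 value was already known to stand apart, so this rank is only a description. The median of the 122 was -0.06, and 4 were above 1. The other 3 were miR-34a, a target of p53, at 1.76, miR-146a, which dampens innate immune signalling, at 1.24, and miR-212 at 1.03. In total signal this array also had the highest whey value of miR-142-3p (22.5) and of miR-142-5p (9.27), while its miR-150 was at 0.826. Both miR-142 values were faint. After normalization miR-142-3p was at 4.02 in rat 2 and 3.67 in rat 3. miR-142-5p was not called detected there and had 0 of 20 spots well above background. The summed signal of the array was 120359, beside 76845 and 103472 in the other rats, and its part in the miR-223 value was not tested.

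**Figure D4:**
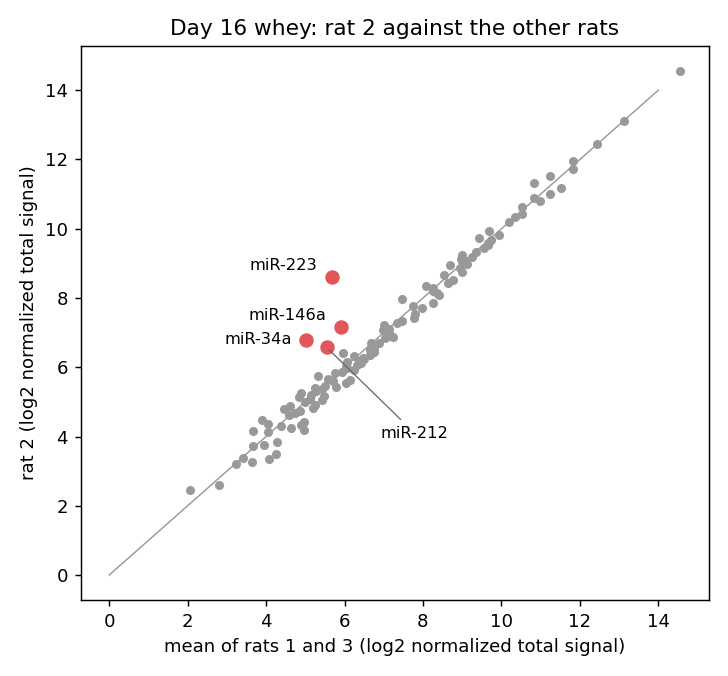
Log2 normalized total signal of the 122 miRNAs detected on all 3 day 16 whey arrays, rat 2 (vertical) against the mean of rats 1 and 3 (horizontal), with the line of equal values. miR-223 is farthest above the line, by 2.91, followed by miR-34a (1.76), miR-146a (1.24) and miR-212 (1.03).

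The mature sequences of these 3 are printed to show that their seeds, in capitals, are not that of miR-223 or of either miR-142 arm.
miR-34a: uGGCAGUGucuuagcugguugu
miR-146a: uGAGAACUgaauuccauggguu
miR-212: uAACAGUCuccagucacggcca
The 6 sequences shown have 6 different seeds. miR-34a had total signals of 15.4, 151 and 36.3 in day 16 whey of rats 1, 2 and 3, and of 26.9, 37.4 and 64.2 in day 9 whey. miR-146a had 25.3, 199 and 55.3 on day 16 and 39.9, 44.3 and 65.0 on day 9. In both miRNAs, as in miR-223, rat 2 was the highest on day 16 and rat 3 on day 9, and rat 1 was the lowest on both days in total signal. The day 16 order is not particular to them, since the summed array signals (76845, 120359 and 103472) had it too. So had miR-21 (1629, 4061 and 2239) but not miR-1224 (29629, 33825 and 40090), and the share over all miRNAs was not counted. On day 9 the summed signals had another order (90179, 106976 and 70752). After normalization rat 2, not rat 1, was the lowest of day 9 for miR-34a (5.42 against 5.597) and miR-146a (5.74 against 6.19). These orders were noticed after the values were seen and are a description of 6 arrays from 3 rats. miR-212 was different, since in normalized signal rat 1 on day 16 (6.71) was above rat 2 (6.58) and only rat 3 (4.37) was low.

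Markers of blood were read on the same arrays. On the day 16 array of rat 2 the red cell miRNA miR-451 was at -0.23, its neighbour miR-144 at -5.09 and the endothelial and platelet miRNA miR-126 at -4.57, none of them detected. The liver miRNA miR-122 was at 4.79 and not detected either. In serum miR-451 read 11967 to 27728 and miR-122 1416 to 2033. On day 9 the array of rat 3, which had the highest miR-223 of that day (71.0), was the 1 whey array on which miR-451 was detected, at 9.97, and it had the lowest summed signal of that day (70752). The part of blood in the miR-223 signal of either array was not tested.

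The miRNAs whose normalized signal was most like that of miR-223 over all 12 arrays were miR-142-5p (Pearson r = 0.98), miR-425 (0.97), miR-122 (0.96), miR-150 (0.96) and miR-23a (0.95), among 185 that varied. So 2 of the 5 were of the 4 leukocyte miRNAs, but these 2 and miR-122 were detected on 0 of 9 whey arrays. Their r sets undetected whey values against serum and is no measure of likeness within whey. miR-142-3p had r = 0.32 and ranked 80. These values rest largely on the step from whey to serum, which all 5 share, and the arrays come from 3 rats and share their scaling. Without the day 16 array of rat 2 the list became miR-451, miR-142-5p, miR-335, miR-23a and miR-674-3p, all at 0.99, with miR-150 in rank 6. Over the 9 whey arrays alone, among 125 miRNAs detected on at least 5 of them, the nearest were miR-322 (0.66), miR-425 (0.65), miR-141 (0.54), miR-34a (0.50) and miR-146a (0.47). Without the day 16 array of rat 2 only miR-322 (0.57) stayed among the nearest 5, followed by miR-93 (0.55), miR-18a (0.53), miR-106b (0.52) and miR-219-5p (0.49). miR-425 was detected in whey on all 9 arrays at total signals of 7.02 to 29.3, highest in rat 2 on day 16, and read 179 to 298 in serum.

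Other miRNAs linked to leukocytes or their activation did not all follow the 4. Of 12 listed, 11 were on the array and 8 were tested. Between serum and day 16 whey 5 rose and 3 fell (limma, adjusted over the 188 tested, of which 36.2% rose and 38.8% fell), with a median of 1.83 beside 0.11 over all tested. miR-342-3p, found in lymphoid and myeloid cells, had the widest fitted difference, 6.05 on the log2 scale (adjusted p = 2e-07). Set against the background limits it was at least 19.8-fold higher in serum. Its total signal was 636, 669 and 648 in serum and 0.543 to 8.33 in whey, so it resembled miR-150, though it was detected on 2 of 9 whey arrays. miR-146a was 4.72-fold higher in serum, and miR-23a, miR-24 and miR-27a, which share a cluster in mammals, were 5.40-fold, 3.74-fold and 3.36-fold higher. The 3 that fell were miR-181a, of developing lymphocytes and many tissues, by at least 14.5-fold, miR-146b by 6.72-fold and miR-21, a miRNA of most activated cells, by 2.61-fold. miR-147, miR-342-5p and miR-511 were detected on no array. The 11 together summed to a signal of 1087 to 1304 on day 2 and 2651 to 4360 on day 9. Day 16 gave 3208 to 7269, and serum gave 10036 to 15516. These sums are not normalized, and the summed signal of all miRNAs also differed between the groups. It was 22491 to 26246 on day 2 and 70752 to 106976 on day 9. On day 16 it was 76845 to 120359, and in serum 90002 to 161389. Its part in the list sums was not tested. Several of the 8 are also made by epithelial cells, so the list is less specific to leukocytes than the 4.

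Markers of other sources separated the fluids too. Beside day 16 whey, serum had miR-451 higher by at least 1171-fold, miR-122 by at least 56.1-fold and miR-126 by at least 3.101-fold, and miR-144 was detected on no array. In the muscle list 2 of 4 rose in serum, beside 36.2% of all tested, miR-133b by 8.91-fold and miR-1, for which whey gave only a bound, by at least 1.98-fold. miR-133a differed least (0.36 on the log2 scale, adjusted p = 0.48). miR-126, miR-122 and miR-1 were detected on all serum arrays and no whey array, as were miR-142-5p and miR-150. Of 7 epithelial miRNAs 6 fell in serum, beside 38.8% of all tested, miR-141 by at least 84.5-fold, and miR-203 differed by 0.37 (adjusted p = 0.453). They summed to 6058 to 11070 on the day 16 arrays but 182 to 587 on the serum arrays. The part of red cells, platelets or liver in the serum signal of the 4 leukocyte miRNAs was not tested.

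**Figure D5:**
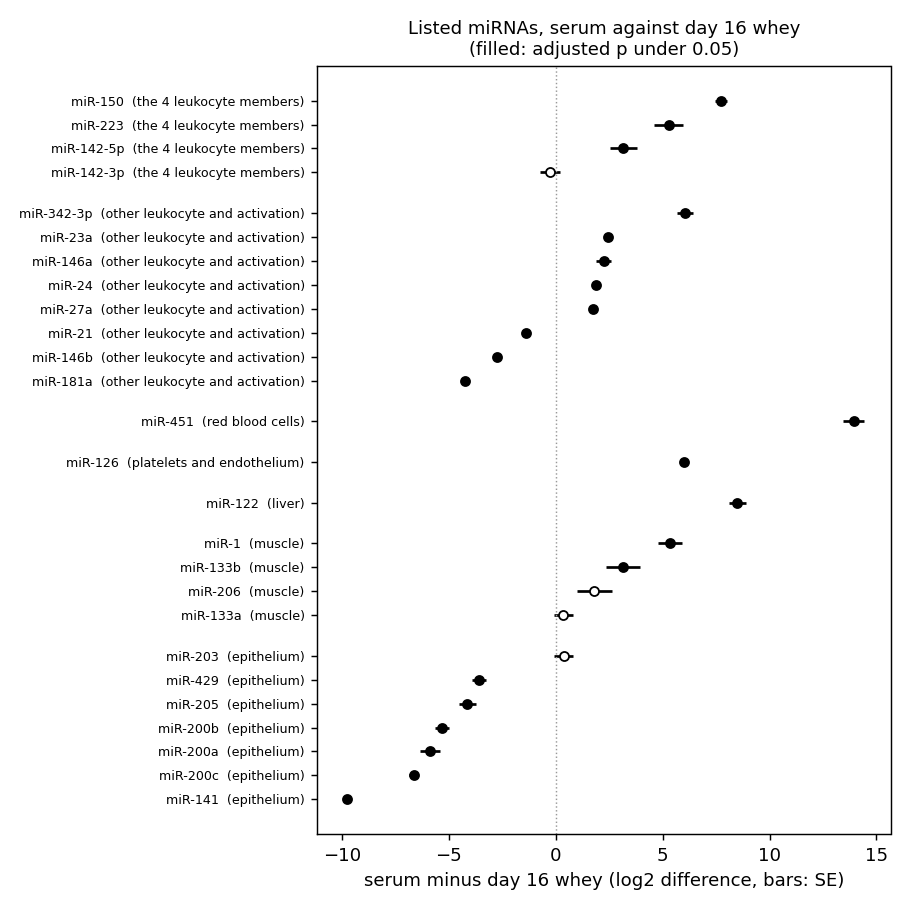
Log2 difference between serum and day 16 whey (points, with bars for the SE) for the 4 leukocyte miRNAs and for the tested miRNAs of 6 marker lists, filled where the adjusted p was under 0.05. miR-150, miR-223 and miR-142-5p lie at 7.73, 5.29 and 3.15, the other leukocyte miRNAs on both sides of 0, and 6 of 7 epithelial miRNAs below 0.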

How the data were processed

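Total RNA from whey and serum had been labelled with Cy3 and hybridized to 1-colour Agilent rat miRNA arrays (miRBase names of the array's design). The authors extracted the scans with Agilent Feature Extraction 9.5.3.1, and the deposited total signal per miRNA is an intensity after background subtraction, not normalized between arrays. The authors then used quantile normalization in GeneSpring. The deposited log2 table was not used here, because its 12 columns carry no sample names. The deposited series value table holds the same spot intensity values and served as an alternative.

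Here the total signals were quantile normalized over 12 arrays and 388 miRNAs in limma 3.58.1 (R 4.3.3), set to at least 1 and put on the log2 scale. limma then fitted 4 group means over the 12 arrays for the 188 miRNAs that any array detected, with Benjamini-Hochberg adjustment per comparison and a threshold of 0.05. The script was tested on simulated data. Bounds used, for each dim array, the higher of its background limit and the miRNA's own value, on means of normalized log2 signals. All 6 comparisons between groups were made, plus the exact permutation test within rats. The 3 arrays of a group came from 3 animals, their number limits the precision, and no 2 arrays held identical values.

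The labels number the rats, and the same rat gave all 4 samples. The deviations of samples of the same rat from their group means correlated at -0.07 to 0.43 (median 0.04, 18 pairs), against -0.37 to 0.21 (median -0.03, 36 pairs) for different rats. The rat as a block was an alternative, as were other scalings, floors, filters, normexp correction (offset 50), an intensity trend, a fit of only the compared arrays, the Tukey-Kramer test of the methods and leaving out each array. The series value table as the source of signal was chosen after seeing the data. The 4 miRNAs, the marker lists and the tests were chosen with earlier results of these data known. Named miRNAs were the 4, the 5 most like miR-223 over 12 and over 9 arrays, the 5 with the largest excess in rat 2 on day 16, and those of each list with the widest and narrowest difference or with the detection pattern of a member; further list members were named to account for counts. Sequences were taken from a RefSeq table on GRCr8, in which 3 of the 4 miRNAs matched.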

Additional observations from a re-analysis of the deposited data

How the results depend on the processing

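The calls of miR-223, miR-142-5p and miR-150 in the serum comparisons kept their direction and stayed under the threshold in all alternatives run. For miR-142-5p and miR-150, tested through their serum arrays alone, this restates their detection pattern and adds no separate support. Of the miR-142-3p calls against day 2 whey, those of day 9 and serum were lost in some. The number of the 4 called between days 9 and 2 was 0 in place of 1 with a floor of 5 and with normexp correction, where the miR-142-3p difference was 0.87 and 0.08. With the rat as a replicate block no call of the 4 changed, and miR-223 kept a log2 difference of 5.29 between serum and day 16 whey (adjusted p = 0.00013). Detection on at least 2 arrays left 1 of the 4 in day 9 whey, and detection on all 3 arrays left 1 in day 9 whey and 1 in day 16 whey.

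Leaving out each array in turn changed no call of the 4, and the miR-223 difference between serum and day 16 whey ran from 4.66 to 6.26, the highest without rat 2 on day 16. The count over all tested miRNAs between days 16 and 9 was 14, against 27 with scaling to the 75th percentile of all miRNAs, 0 without normalization, 22 with a floor of 5, 8 without rat 1 of day 9, 22 by the unadjusted Tukey-Kramer test and 1 by it after adjustment. The cause was not tested. Without normalization the median over all miRNAs moved by 0.91 between days 9 and 2, by 1.14 between days 16 and 2 and by 0.84 between serum and day 16, and the split of calls became 93 higher and 12 lower, 104 and 15, and 86 and 47, from 53 and 32, 61 and 43, and 68 and 73. Faint signals limit miR-142-3p in all groups and give only bounds for miR-142-5p and miR-150 in whey.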
